A study of Mus musculus with 13 samples.

Results

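The genes described are those of the IL-6 family of cytokines and their gp130 receptor system: the ligands Il6, Lif, Il11 and Clcf1, the receptor chains Il6st (gp130), Il6ra, Osmr and Lifr, the transcription factor Stat3 and the feedback inhibitor Socs3. These 10 genes were chosen by name, for their place in the pathway, from the 57010 genes listed in each library, and all 10 were among the 15034 genes with enough counts to be tested. RNA was sequenced from primary wild-type mouse embryonic fibroblasts (MEFs), cells grown out of mid-gestation embryos after removal of viscera, in 4 groups with mice 4, 5 and 6 in each. Control MEFs were untreated, and senescent MEFs had received 2 μM etoposide, a topoisomerase II poison that breaks DNA, for 24 h followed by 5 days of culture (the labels read Eo or Eto, and the agent, dose and times are those of the study's methods). The other groups were senescent MEFs treated for 12 h with Fucoidan-FV, a sulfated polysaccharide of the brown seaweed Fucus vesiculosus, at 100 or 300 μg/mL. Control mouse 5 had libraries 5(1) and 5(2), which were summed, so n = 3 mice in every group.

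Cytokines of the IL-6 family signal through gp130, the shared chain encoded by Il6st. IL-6 and IL-11 first bind their own receptors, which then recruit gp130, whereas LIF and CLCF1 use gp130 with the LIF receptor chain and oncostatin M uses gp130 with the chain encoded by Osmr or Lifr. JAK kinases bound to these chains phosphorylate STAT3, which enters the nucleus and activates genes such as Socs3, whose product binds gp130 and shuts the receptor off. IL-6 is a classical component of the senescence-associated secretory phenotype (SASP), and transcription of Il6 is known to respond to AP-1 and NF-κB factors and that of Il11 to AP-1.

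The proximal promoters are shown because letters of the factors named above occur in several of them. RefSeq windows from 250 bases before to 50 bases after the start of transcription (GRCm38.p6, an older build than the GRCm39 of the counts) were given for 9 of the 10 genes, in 11 windows. Clcf1 had no entry. Both strands were searched for TGANTCA (AP-1), GGNNTTTCC (NF-κB) and TTCNNNGAA (STAT), which do not overlap each other here. Capitals mark the matches in the windows of Il6 (chr5:30012864-30013163, plus strand), Lif (chr11:4257318-4257617, plus strand), the downstream of the 2 Il11 starts (chr7:4778092-4778391, minus strand), Osmr (chr15:6874264-6874563, minus strand) and Socs3 (chr11:117969317-117969616, minus strand).
Il6: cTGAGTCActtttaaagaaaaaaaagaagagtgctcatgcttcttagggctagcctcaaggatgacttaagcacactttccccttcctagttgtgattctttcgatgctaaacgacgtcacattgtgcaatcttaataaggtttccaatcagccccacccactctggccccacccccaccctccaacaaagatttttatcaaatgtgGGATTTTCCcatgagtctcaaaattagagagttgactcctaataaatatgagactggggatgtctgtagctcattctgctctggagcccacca
Lif: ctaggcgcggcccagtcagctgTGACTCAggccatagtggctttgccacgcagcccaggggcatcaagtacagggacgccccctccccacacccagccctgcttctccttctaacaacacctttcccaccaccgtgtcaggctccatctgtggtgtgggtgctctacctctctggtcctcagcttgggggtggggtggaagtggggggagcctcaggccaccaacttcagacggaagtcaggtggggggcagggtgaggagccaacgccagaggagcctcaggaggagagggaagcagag
Il11: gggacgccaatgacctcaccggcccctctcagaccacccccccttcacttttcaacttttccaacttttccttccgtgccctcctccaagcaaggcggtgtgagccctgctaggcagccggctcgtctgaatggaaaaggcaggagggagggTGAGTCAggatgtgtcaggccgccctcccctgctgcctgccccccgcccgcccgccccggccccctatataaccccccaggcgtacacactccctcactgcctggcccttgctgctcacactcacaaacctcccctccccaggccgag
Osmr: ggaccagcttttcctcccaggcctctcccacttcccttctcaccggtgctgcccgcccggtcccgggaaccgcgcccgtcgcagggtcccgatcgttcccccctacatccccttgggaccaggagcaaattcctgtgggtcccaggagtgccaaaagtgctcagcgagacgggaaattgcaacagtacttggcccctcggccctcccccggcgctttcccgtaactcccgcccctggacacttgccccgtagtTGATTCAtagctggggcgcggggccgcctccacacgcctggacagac
Socs3: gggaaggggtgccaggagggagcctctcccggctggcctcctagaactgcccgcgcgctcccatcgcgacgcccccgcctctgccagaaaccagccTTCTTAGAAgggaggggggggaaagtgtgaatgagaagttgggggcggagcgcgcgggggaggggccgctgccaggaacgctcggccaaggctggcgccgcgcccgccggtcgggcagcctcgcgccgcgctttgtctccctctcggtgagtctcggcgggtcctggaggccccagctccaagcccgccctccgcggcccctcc

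The AP-1 letters lay 249 bases before the start in Il6, 228 before it in Lif, 98 before it in Il11 and 3 after it in Osmr, and 7.81% of all 32851 promoter windows held them. The NF-κB letters were found in Il6, 43 bases before the start, and in 5.82% of all windows. The STAT letters were found in Socs3, 154 bases before the start, and in 8.3% of all windows. The windows of Il6st, Il6ra, Lifr and Stat3 held none of the 3 motifs. These matches describe letters and were not tested for binding.

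Totals were 22782505 to 31278741 counts per library. Etoposide-treated cells showed the senescence markers: the cell cycle inhibitor Cdkn1a rose from 468 ± 83.2 to 1652 ± 187 CPM (counts relative to the TMM-scaled library total, mean ± SD, n = 3, with a log2 fold change of 1.82 ± 0.18 SE and an adjusted p of 6.8e-05 in edgeR's quasi-likelihood test), and Cdkn2a rose from 45.2 ± 8.41 to 248 ± 89.3 CPM (adjusted p = 7.24e-05). All 12 fibroblast markers were tested, with a summed level of 32864 to 56754 CPM per sample. The largest part of this sum was Fn1, at 18163 to 42455 CPM. Dcn was at 0.726 to 1.57 CPM in control, 12.7 to 22.9 in senescent and 37.5 to 168 at 100 μg/mL. Lum was under 1 CPM in all control and senescent samples. Senescence raised Dcn and Lum as DEGs (defined below). Relative to senescent cells, Col3a1, Dcn and Lum were raised DEGs at 100 μg/mL, and Col3a1 at 300 μg/mL. With each dose 8 of the 12 had positive log2 fold changes and 4 negative, with 0 DEGs among the latter. The summed level of the macrophage list, which also held the T cell gene Cd3e and the B cell gene Cd79a, was 3.57 to 5.48 CPM in control, 3.71 to 18.5 in senescent, 7.51 to 17.7 at 100 μg/mL and 5.31 to 13.8 at 300 μg/mL. Of its 13 genes Aif1, Fcer1g, Cd3e and Cd79a were under 1 CPM in every sample, and 9 of the 10 tested were higher in senescent than in control MEFs with 0 DEGs. Csf1r reached 8.88 CPM and Lyz2 6.44 CPM. The summed level of 8 endothelial markers was 1.32 to 2.21 CPM in control, 1.57 to 4.11 in senescent, 9.43 to 23.0 at 100 μg/mL and 11.9 to 15.2 at 300 μg/mL. Of these, Tek was at 0.172 to 0.863 CPM in senescent and 4.77 to 7.96 at 100 μg/mL, and Erg at 0.032 to 0.905 and 3.1 to 11.3 CPM, whereas Cdh5 and Tie1 were under 1 CPM in every sample and Cldn5 was at 0. Relative to senescent cells, Tek was a raised DEG at 100 μg/mL, and 0 of the 5 endothelial markers tested were DEGs at 300 μg/mL. Tek and Erg were raised DEGs at both doses relative to control. Summed muscle markers were at 104 to 196 CPM in control, 149 to 360 in senescent, 92.9 to 149 at 100 μg/mL and 68.2 to 120 at 300 μg/mL, with Myod1, Myog, Ckm, Actn2 and Myh3 under 1 CPM and Myf5 at 0. Nearly all of this sum was Des, at 21.9 to 267 CPM, and Acta1, at 13.6 to 121 CPM. The highest Des level was in senescent mouse 6. Summed epithelial markers were at 0 to 2.24 CPM. The part of these cell types in the results described here was not tested. In 4 libraries (control 6, control 5(1), senescent 5 and 300 μg/mL mouse 4, called the low libraries here) the 1104 genes with over 95% of their exonic sequence in a single transcript had a median log2 deviation of −1.53 to −0.98 from the mean of all samples, against −0.21 to 1.21 in the other 9 libraries. In bulk RNA, a change in level per cell and a change in the share of a cell type cannot be told apart.

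**Figure D1:**
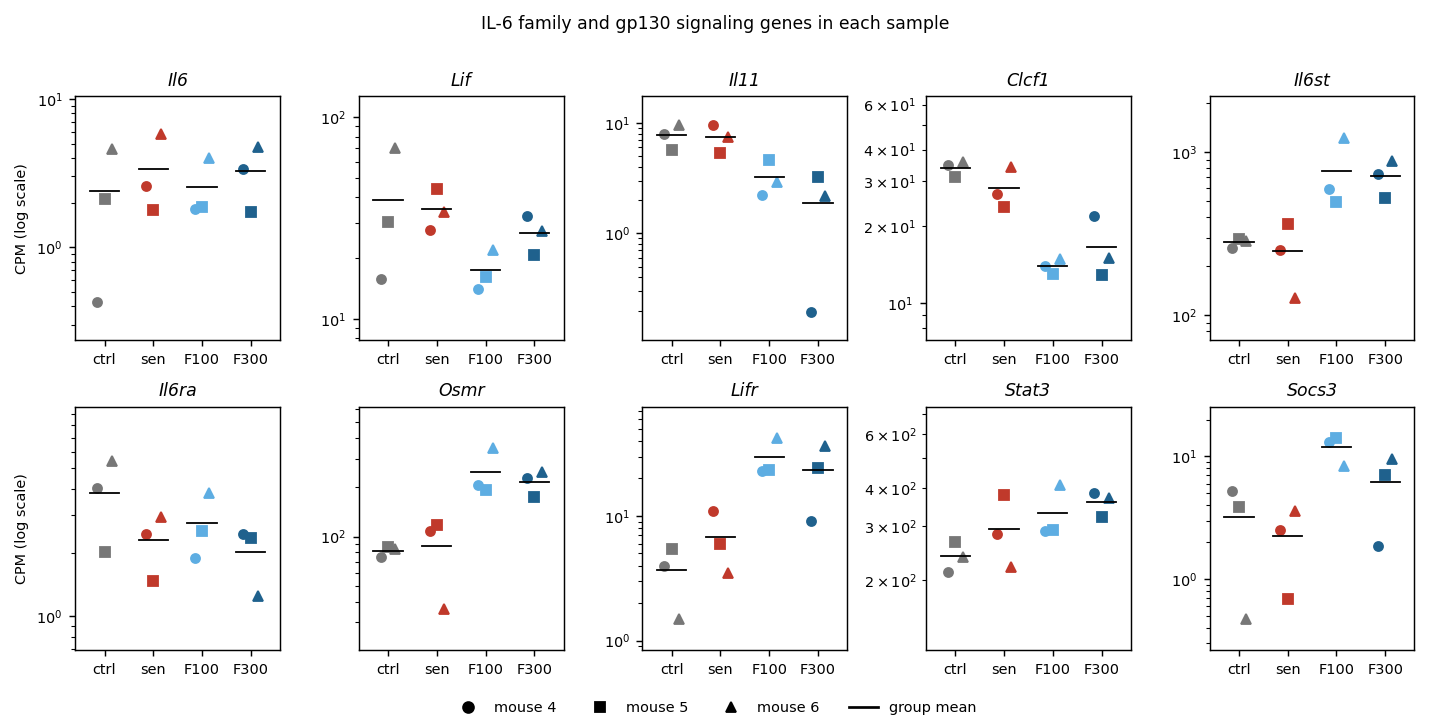
Level of each of the 10 genes in every sample (CPM, log axis; points are mice 4, 5 and 6, bars are group means) in control (ctrl), senescent (sen) and Fucoidan-FV-treated MEFs at 100 μg/mL (F100) and 300 μg/mL (F300). Il6st and Osmr lie higher in all treated samples than in all senescent ones, Clcf1 lies lower, and Il6 overlaps between all groups.

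None of the 10 genes passed the test in senescent against control MEFs. The count of DEGs (differentially expressed genes, here those that passed an adjusted p of 0.05 with more than a 2-fold difference, a log2 fold change over 1 in size) was 0 of 10 by edgeR's quasi-likelihood test, where 8.42% of all tested genes were DEGs, 0 of 10 had an unadjusted p under 0.05, and DESeq2 also called 0. Il6 was at 0.425, 2.1 and 4.61 CPM in control mice 4, 5 and 6 and at 2.59, 1.77 and 5.78 CPM in the senescent cells of the same mice. Thus the control samples spread over a wider range than the difference between the means, and Il6 was higher in 2 of 3 mice (log2 fold change 0.51, SE 0.75, 95% interval −0.98 to 2.0, adjusted p = 0.744). Lifr was higher in 3 of 3 mice, with 3.99, 5.46 and 1.5 CPM in control and 10.9, 5.99 and 3.5 CPM in senescent MEFs, but the groups overlapped (log2 fold change 0.88, SE 0.56, adjusted p = 0.368). Over the 10 genes adjusted p ranged from 0.368 to 0.977, and 0 of 10 had groups that did not overlap, against 27.1% of all tested genes.

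Treatment with 100 μg/mL Fucoidan-FV raised Il6st and Osmr, which encode signaling receptor chains, and lowered the ligand Clcf1 in senescent MEFs. These 3 DEGs among 10 genes stood beside 2.69% of all tested genes. The values of 7 of 10 genes (Lif, Il11, Clcf1, Il6st, Osmr, Lifr and Socs3) did not overlap between the groups, against 26.2% of all tested genes. DESeq2 called 4 at this dose, Il6st, Osmr, Lifr and Socs3 (adjusted p = 0.0154 for Socs3), and not Clcf1. At 300 μg/mL, 0 of 10 were DEGs by edgeR, with 5 at an unadjusted p under 0.05 and 4 called by DESeq2 (Il11, Il6st, Lifr and Osmr), where 1.64% of all genes were DEGs. At that dose 4 genes did not overlap with the senescent group (Il11, Clcf1, Il6st and Osmr), against 19.6% of all genes.

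**Figure D2:**
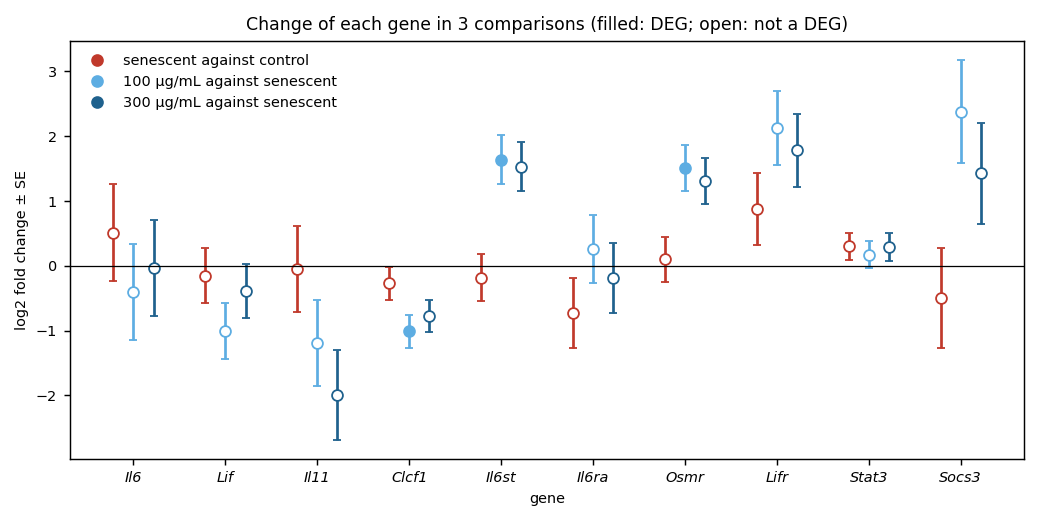
Log2 fold change ± SE of each gene (edgeR's quasi-likelihood fit, n = 3 mice per group) in senescent against control MEFs and in each dose against senescent MEFs; filled points are DEGs. The receptor chains Il6st, Osmr and Lifr lie above 0 and the ligands Il11 and Clcf1 below 0 at both doses, and the 3 filled points are Il6st, Osmr and Clcf1 at 100 μg/mL.

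Among the receptor chains, Il6st (gp130) was at 252, 364 and 127 CPM in the senescent cells of mice 4, 5 and 6, at 598, 496 and 1219 CPM with 100 μg/mL and at 738, 520 and 887 CPM with 300 μg/mL. Every treated sample lay above every senescent and every control sample (259, 294 and 286 CPM), and senescent mouse 6 was the lowest sample while the same mouse at 100 μg/mL was the highest. The increase was 3.11-fold at 100 μg/mL (log2 fold change 1.64, SE 0.38, adjusted p = 0.0324) and 2.89-fold at 300 μg/mL (log2 fold change 1.53, SE 0.38, adjusted p = 0.0597), which did not pass. With the mouse as a paired block the adjusted p at 100 μg/mL was 0.0717, and without mouse 6 at 100 μg/mL the log2 fold change was 1.14 (adjusted p = 0.106). Without mouse 4 at that dose the adjusted p was 0.0621. It was a DEG in 10 of the 12 fits that left out 1 sample each.

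Osmr, the chain that pairs with gp130 for oncostatin M, was at 108, 118 and 36.3 CPM in senescent MEFs, at 207, 193 and 347 CPM with 100 μg/mL and at 229, 174 and 249 CPM with 300 μg/mL. Again no treated sample overlapped with the senescent or the control samples (75.4, 86.6 and 83.6 CPM). It rose 2.84-fold at 100 μg/mL (log2 fold change 1.51, SE 0.36, adjusted p = 0.0384), and the difference at 300 μg/mL was 2.48-fold (log2 fold change 1.31, SE 0.36, adjusted p = 0.0869). In the paired block the adjusted p at 100 μg/mL was 0.0736, without mouse 6 or mouse 4 at that dose it was 0.112 or 0.0784, and without the low libraries it was 0.0598 with a log2 fold change of 1.85. It was a DEG in 6 of the 12 fits with 1 sample left out.

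Lifr, the LIF receptor chain, was at 23.1, 23.3 and 42.0 CPM with 100 μg/mL and at 9.15, 24.4 and 36.7 CPM with 300 μg/mL. At 100 μg/mL all samples lay above the senescent ones, whereas at 300 μg/mL mouse 4, a low library, lay within the senescent range. Relative to senescent MEFs the differences of 4.33-fold (log2 fold change 2.12, SE 0.57, adjusted p = 0.056) and 3.44-fold (log2 fold change 1.78, SE 0.57, adjusted p = 0.135) did not pass. DESeq2 gave an adjusted p of 0.00219 and 0.023, and the paired block gave 0.104 and 0.237. Lifr was a DEG in 3 of the 12 fits with 1 sample left out at 100 μg/mL and in 0 at 300 μg/mL. Il6ra, which encodes the IL-6-binding receptor, was low everywhere, at 1.47 to 2.96 CPM in senescent, 1.88 to 3.84 at 100 μg/mL and 1.24 to 2.44 at 300 μg/mL. Its groups overlapped in both comparisons (log2 fold changes 0.26 and −0.19, adjusted p = 0.841 and 0.918).

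Among the ligands, Clcf1, a cytokine that acts through gp130 and the LIF receptor chain, was at 26.7, 23.8 and 34.3 CPM in senescent MEFs, at 14.0, 13 and 14.9 CPM with 100 μg/mL and at 21.9, 12.9 and 15.1 CPM with 300 μg/mL. All treated samples were below all senescent samples, and the 100 μg/mL samples lay close together. Clcf1 fell 2.02-fold at 100 μg/mL (log2 fold change −1.01, SE 0.25, adjusted p = 0.0412), near the fold threshold, and the 1.7-fold lower level at 300 μg/mL did not pass (log2 fold change −0.77, SE 0.25, adjusted p = 0.141). The adjusted p at 100 μg/mL was 0.0504 in the paired block, and in DESeq2 the log2 fold change of −0.92 was under the threshold, so that the call was lost in both. It was a DEG in 2 of the 12 fits with 1 sample left out. Of its exonic sequence 8.17% is shared with an overlapping gene on the same strand (Gm45928), so some counts could belong to that gene.

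Il6 itself did not differ by more than its spread at either dose. It was at 1.82, 1.86 and 4.01 CPM with 100 μg/mL and at 3.37, 1.74 and 4.73 CPM with 300 μg/mL, within or overlapping the senescent range, and mouse 6 had the highest Il6 level in all 4 groups. The 95% intervals of the log2 fold change were −1.89 to 1.09 (adjusted p = 0.824) and −1.53 to 1.44 (adjusted p = 0.991). The coefficient of variation between mice was 62.7% in senescent MEFs, 49.1% at 100 μg/mL and 45.6% at 300 μg/mL.

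Il11 was at 9.62, 5.3 and 7.51 CPM in senescent MEFs, at 2.25, 4.66 and 2.91 CPM with 100 μg/mL and at 0.194, 3.27 and 2.16 CPM with 300 μg/mL. All treated samples were below all senescent samples, but neither the lower level at 100 μg/mL (log2 fold change −1.19, SE 0.67, adjusted p = 0.352) nor that at 300 μg/mL (−1.99, SE 0.69, adjusted p = 0.167) passed. Lif was at 27.6, 43.8 and 33.8 CPM in senescent MEFs, at 14.1, 16.1 and 22 CPM with 100 μg/mL and at 32.5, 20.8 and 27.3 CPM with 300 μg/mL. Its values at 100 μg/mL lay below all senescent samples and those at 300 μg/mL overlapped with them (log2 fold changes −1.01 and −0.39, adjusted p = 0.208 and 0.748). Its highest level, 70.5 CPM, was in control mouse 6, a low library. By library, Lif was at 31.1 to 70.3 CPM in the low control libraries and 15.7 to 27.6 in the others. In senescent MEFs it was at 43.7 CPM against 27.5 to 33.7, and at 300 μg/mL 32.4 against 20.7 to 27.2. The 100 μg/mL group held no low library. Without the low libraries the log2 fold change of Lif at 100 μg/mL was −0.74 (adjusted p = 0.171).

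Stat3, the transcription factor that gp130 activates, was at 283, 378 and 221 CPM in senescent, 290, 292 and 410 at 100 μg/mL and 385, 321 and 370 at 300 μg/mL. The groups overlapped. The difference was 0.17 on the log2 scale at 100 μg/mL (SE 0.21, adjusted p = 0.721) and 0.29 at 300 μg/mL (SE 0.21, adjusted p = 0.589). Socs3, the STAT3-induced inhibitor of gp130, was at 2.49, 0.69 and 3.6 CPM in senescent MEFs, at 13.1, 14.2 and 8.3 CPM with 100 μg/mL and at 1.86, 7.08 and 9.5 CPM with 300 μg/mL. All 100 μg/mL samples were above the senescent ones, by 5.22-fold (log2 fold change 2.38, SE 0.8, adjusted p = 0.115), and the 300 μg/mL samples overlapped with them (log2 fold change 1.43, SE 0.78, adjusted p = 0.424).

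Socs3 also moved with the counting of single-transcript genes. Of its exonic sequence 92.4% lies in a single transcript, and its level was 0.469 to 1.86 CPM in the 4 low libraries and 2.49 to 14.2 CPM in the other 9. The libraries of control mouse 5 differed in the same way, with 0.949 CPM in library 5(1) and 7.2 CPM in library 5(2). No low library was in the 100 μg/mL group. Without the low libraries, which left 2 senescent libraries, the difference at 100 μg/mL had a log2 fold change of 2.06 and an adjusted p of 0.03. With offsets for the sequence features of each gene it was 2.04 (adjusted p = 0.017). In the paired block the adjusted p was 0.181, and Socs3 was a DEG in 0 of the 12 fits with 1 sample left out.

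**Figure D3:**
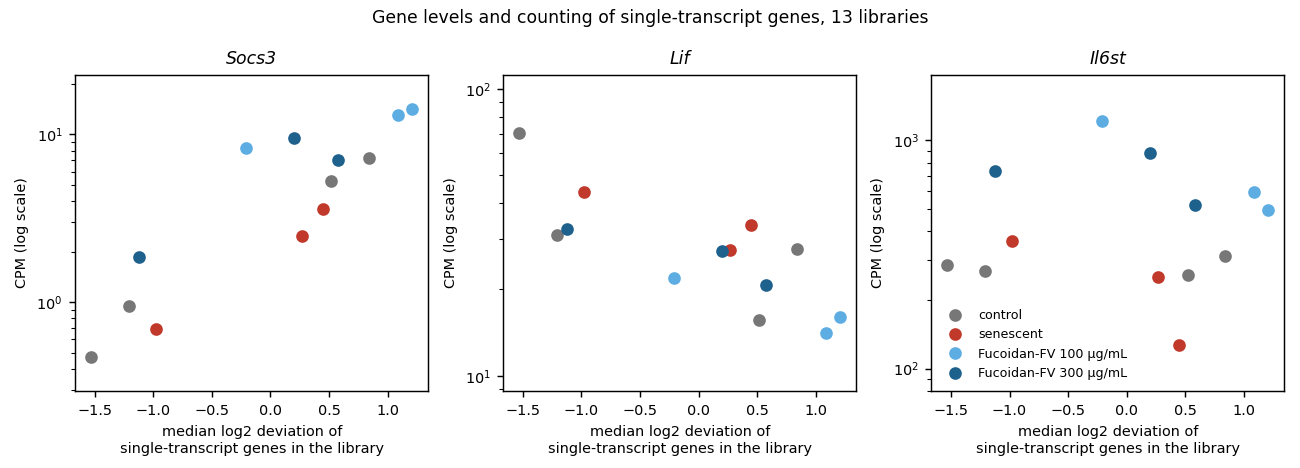
Level of Socs3, Lif and Il6st (CPM, log axis) in each of the 13 libraries against the median log2 deviation of single-transcript genes in that library. Socs3 is lowest in the 4 libraries with a deviation under −0.5, and Lif is higher in them than in the other libraries of the same group. Il6st lies higher in treated than in senescent and control libraries on both sides.

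Between the doses none of the 10 genes passed the test, where 0.00665% of all genes were DEGs. The adjusted p was 0.97 or 0.972 for all 10, with 0 of 10 at an unadjusted p under 0.05 and 0 called by DESeq2. The widest interval was that of Socs3, whose log2 fold change of 300 against 100 μg/mL was −0.95 (95% interval −2.48 to 0.58), so equal action of the doses was not shown.

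Relative to control MEFs, Lifr, Il6st and Osmr rose and Clcf1 fell at both doses. At 100 μg/mL 4 of 10 genes were DEGs, against 19.7% of all genes, and at 300 μg/mL 5 of 10, against 18% of all genes. Lifr showed the largest difference of the 10 genes, 7.99-fold at 100 μg/mL (log2 fold change 3.0, SE 0.6, adjusted p = 0.00245) and 6.35-fold at 300 μg/mL (adjusted p = 0.00509), each higher in 3 of 3 mice. Without the low libraries 2 of the 5 at 300 μg/mL passed, Lifr and Clcf1. Il11, the additional gene at 300 μg/mL, fell 4.12-fold (log2 fold change −2.04, SE 0.69, adjusted p = 0.0456, or 0.0561 in the paired block). These comparisons share the treated samples with those against senescent MEFs, and the control and treated cells differ in both etoposide and Fucoidan-FV.

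The order of the genes by CPM per kilobase of effective length was led by Stat3 and Il6st in control MEFs (59.9 ± 6.73 and 51.5 ± 3.35), which overlapped. Clcf1 (22.6 ± 1.59) and Osmr (19.9 ± 1.41) followed, Il6 was at 3.25 ± 2.88 and Il6ra was lowest at 0.855 ± 0.384, and from Osmr down each gene overlapped with the next. In senescent MEFs Stat3 (73.9 ± 19.8) and Il6st (45.6 ± 21.7) again came first and overlapped. At 100 μg/mL Il6st (142 ± 72.0) stood before Stat3 (83.1 ± 17.3) and Osmr (60.5 ± 20.7), each overlapping with the next, and Lifr was at 7.66 ± 2.82. The effective length that RSEM gave Lifr ran from 350 to 5878 bases between libraries, so its place in this order is uncertain.

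The other genes of the pathway were taken from lists by role. Among the 9 other ligands, 3 could be tested and 0 were DEGs against senescent MEFs at either dose. Among the 7 other receptors 5 were tested and 0 were DEGs in these comparisons; Il11ra1, the IL-11 receptor, chosen here after its values were seen, was at 45.0 ± 16.6 CPM in senescent and 68.6 ± 15.4 CPM at 300 μg/mL (adjusted p = 0.324).

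All 22 kinases and signal carriers were tested, and their median log2 fold change was 0.0 at 100 μg/mL and 0.09 at 300 μg/mL, beside −0.02 and 0.0 for all genes. Of the 18 inhibitors, Socs2, a SOCS protein known for growth hormone signaling, fell 2.04-fold in senescent against control MEFs (adjusted p = 0.015) and 2.34-fold further at 100 μg/mL (adjusted p = 0.0159). Without the low libraries the log2 fold change in senescence was −0.54 (adjusted p = 0.284), and that at 100 μg/mL against senescent MEFs was −1.09 (adjusted p = 0.0611). With only the 2 groups compared, the adjusted p at 100 μg/mL was 0.0647. Socs2 was a DEG at this dose in 18 of the 25 alternative fits.

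Of 32 STAT3-responsive genes 29 were tested. In senescence 2 of them were higher and 1 a lower DEG, a share near the 8.42% of all genes. Icam1, an adhesion molecule, rose from 0.107 ± 0.147 CPM to 7.9 ± 1.96 CPM (adjusted p = 0.000204, with a log2 fold change of 5.82 ± 0.7 SE), and Birc5, which encodes the mitotic protein survivin, fell from 36.0 ± 8.97 to 2.09 ± 1.96 CPM (adjusted p = 0.0113). With Fucoidan-FV there were 0 higher DEGs at either dose, 3 lower ones at 100 μg/mL and 2 at 300 μg/mL, where 2.69% and 1.64% of all genes were DEGs in either direction. Timp1, an inhibitor of matrix metalloproteinases, fell from 1599 ± 762 CPM to 260 ± 34.5 at 100 μg/mL (6.14-fold, adjusted p = 0.00056) and to 270 ± 47.2 at 300 μg/mL (5.92-fold, adjusted p = 0.000955). Myc fell 2.33-fold (adjusted p = 0.00765) and 2.03-fold (adjusted p = 0.0243), and Bcl2l1, which encodes the survival protein BCL-XL, fell 2.15-fold at 100 μg/mL (adjusted p = 0.00427). The list's median log2 fold change was 0.27 at 100 μg/mL and −0.11 at 300 μg/mL, beside −0.02 and 0.0 for all genes.

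Of 16 regulators of Il6, 2 were DEGs at each dose, 1 in each direction, where 2.69% and 1.64% of all genes were DEGs. Fosl1, which encodes the AP-1 subunit FRA-1, fell from 17.5 ± 4.38 CPM to 1.9 ± 1.28 at 100 μg/mL (9.18-fold, adjusted p = 0.00859) and to 1.22 ± 0.319 at 300 μg/mL (14.3-fold, adjusted p = 0.00635), lower in 3 of 3 mice at each dose. Zfp36l1, which encodes a protein that binds AU-rich mRNA and promotes its decay, rose from 21.7 ± 8.33 CPM to 72.9 ± 29.0 (3.35-fold, adjusted p = 0.0206) and 75.9 ± 23.9 (3.49-fold, adjusted p = 0.0261, or 0.0555 in the paired block at 300 μg/mL). Of the genes whose promoter windows hold the AP-1 letters shown above, Osmr rose at 100 μg/mL and Il6, Lif and Il11 did not pass at either dose.

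**Figure D4:**
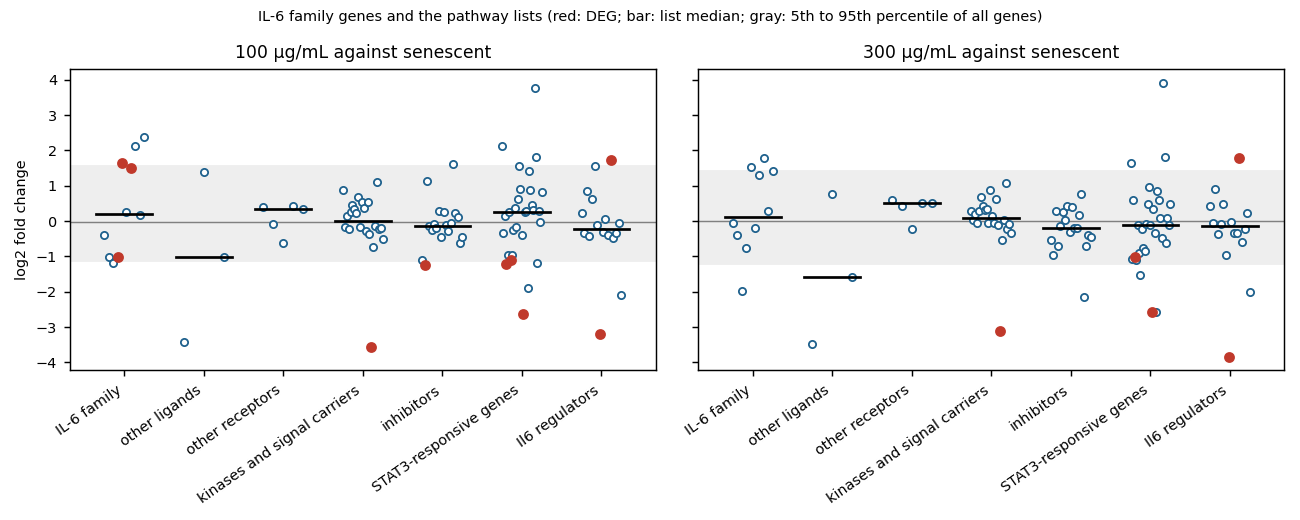
Log2 fold change of the 10 genes and of each tested gene of the pathway lists at 100 and 300 μg/mL against senescent MEFs; red points are DEGs, bars are list medians and the gray band spans the 5th to 95th percentile of all tested genes. Timp1 and Fosl1 are the lowest DEGs of their lists at both doses, and Zfp36l1 is the only red point above 0 outside the IL-6 family.

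The genes with the pattern most like each ligand and Socs3 over the 12 samples were found by Pearson's r of log2 levels, as a description. Clcf1 was closest to Cyth2 (0.986), Tjap1 (0.985) and Mrps6 (0.981), Lif to Vegfa (0.959), Bmal1 (0.954) and Kif3c (0.945), and Il6 to Fam110a (0.934), Prickle3 (0.926) and Sdc1 (0.904). The nearest gene to Il11 was Rnf149 (0.924). Socs3 was closest to Fstl1 (0.992), Olfml2b (0.975) and Tmem64 (0.973), of whose exonic sequence 73.7%, 100% and 100% lies in a single transcript, the feature that also moved with the low libraries. Within the 10 genes, Il6st and Osmr had an r of 0.98, Clcf1 and Lifr −0.93, and Lif and Socs3 −0.88; the samples of each pair of genes share libraries and groups.

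All 10 genes are protein coding, and their positions on GRCm39 are chr13:112600604-112646620 for Il6st, chr15:6843053-6904450 for Osmr, chr15:7120095-7226970 for Lifr, chr3:89771366-89820719 for Il6ra, chr5:30218112-30224979 for Il6, chr11:4207557-4222514 for Lif, chr7:4775372-4785858 for Il11, chr19:4264292-4273546 for Clcf1, chr11:100775924-100830450 for Stat3 and chr11:117856905-117860898 for Socs3. Osmr and Lifr thus lie near each other on chromosome 15.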

How the data were processed

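RNA of MEFs was sequenced from stranded total RNA libraries (13 libraries, 3 mice in each of 4 groups). Per the labels and methods, the authors used FastQC 0.12.1, Trimmomatic, STAR 2.7.11b on GRCm39 and RSEM 1.3.1, and deposited expected counts per gene without normalization beside TPM values, which were not used for tests. Effective lengths deposited by the authors in the same files were used for levels per kilobase. Whether counting used strand is not given in the sources used here. A further table of the series was not used.

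Expected counts were rounded and libraries 5(1) and 5(2) summed. Genes were filtered by filterByExpr (minimum count 10, minimum total 15). Differences were tested with edgeR 4.0.16 (R 4.3.3), quasi-likelihood test with TMM factors in 1 fit over 4 groups, and Benjamini-Hochberg adjustment over 15034 genes in each of 6 comparisons. The study's methods name DESeq2, which was run as an alternative (1.42.0). Levels are TMM-scaled CPM. SEs were derived from the fit, and 95% intervals are the estimate ± 2 SE.

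The labels give mouse numbers shared by all groups, so samples of 1 number were taken as paired and fitted with a block as an alternative. Over 18 pairs of same-numbered samples, the correlation of their deviations from the group mean ran from −0.329 to 0.601 (median −0.0372), and 8 exceeded 0.1. The 10 genes, the pathway lists and the tests were chosen with earlier results of these data known. Named list genes were the DEGs with the smallest adjusted p, at most 3 per list and comparison, that moved the same way in 3 of 3 mice and reached 1 CPM or more in the group where they were higher. The test was checked on simulated counts. Sequence-feature offsets were fitted with mgcv 1.9.3 on single-transcript share, length and GC content, as planned. Their centring in each library, and the fit without low libraries, were added after results had been seen. The fit without low libraries kept 2 libraries each in control, senescent and 300 μg/mL, and 3 at 100 μg/mL. Some results of the pathway lists are not reported here.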

Additional observations from a re-analysis of the deposited data

How the results depend on the processing

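Each value was recomputed under 25 alternatives, 12 of which left out 1 sample each. The count of DEGs among the 10 genes at 100 μg/mL against senescent MEFs, 3, was 0 with only the 2 groups compared, 1 with library 5(2) alone for control mouse 5, 0 with the mouse as a paired replicate block, and 0 to 3 with 1 sample left out, being 0 without mouse 4 or mouse 6 at 100 μg/mL. At 300 μg/mL against senescent MEFs, 0 became 4 with DESeq2, 4 with no filter on low counts, 1 with sequence-feature offsets, with or without the block, 2 with centred offsets, with or without the block, and 0 to 1 with 1 sample left out. At 300 μg/mL against control, 5 became 3 with centred offsets, with or without the block, 2 without the low libraries, and 2 to 5 with 1 sample left out. The cause of these differences was not tested. The counts at 300 against 100 μg/mL and for senescent against control MEFs stayed at 0 in all alternatives.

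With the planned sequence-feature offsets the median log2 fold change of all genes against senescent MEFs was −0.22 at 100 μg/mL and −0.12 at 300 μg/mL, from −0.02 and 0.0 without them. Offsets centred in each library, an alternative added after this shift was seen, left medians of −0.06 and 0.04. Fold changes under the planned offsets are to be read against those medians. The signs that turned were all of values that were no DEGs. Il6 at 300 μg/mL against senescent MEFs was 0.07 in the paired block, 0.01 and 0.1 with offsets without and with the block, and 0.17 and 0.23 with centred offsets. Il6ra at 100 μg/mL was −0.34 and −0.23 with offsets and −0.18 and −0.08 with centred offsets. Stat3 at 100 μg/mL was −0.18 and −0.19 with offsets and −0.03 and −0.03 with centred offsets, and at 300 μg/mL −0.09 and −0.08 with offsets. In senescent against control MEFs, Lif was 0.01 in the paired block and 0.5 without the low libraries, Il11 was 0.05 with the libraries of control mouse 5 separate, 0.02 with 5(1) alone and 0.22 without the low libraries, Clcf1 was 0.02 and Osmr −0.26 without the low libraries, and Socs3 was 0.03 with 5(1) alone. At 300 against 100 μg/mL, Clcf1 was −0.06 and Lifr 0.01 without the low libraries.

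With 1 sample left out, the log2 fold changes printed in the report that turned ranged as follows. In senescent against control MEFs Il6 ran from −0.12 to 1.4, Lif from −0.54 to 0.61, Il11 from −0.3 to 0.16, Il6st from −0.54 to 0.14, Osmr from −0.15 to 0.47 and Socs3 from −0.99 to 0.04. At 100 μg/mL against senescent MEFs Il6 ran from −0.88 to 0.33, Il6ra from −0.06 to 0.6 and Stat3 from −0.02 to 0.51. At 300 μg/mL Il6 ran from −0.4 to 0.61 and Il6ra from −0.38 to 0.08. At 300 against 100 μg/mL Il6st ran from −0.34 to 0.39, Osmr from −0.35 to 0.12 and Lifr from −0.81 to 0.05.

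Over all genes, DEGs at 100 μg/mL against senescent MEFs (405) numbered 770 with DESeq2, 800 with no filter, 168 with the 2 groups alone, 682 with offsets and 707 with offsets and block. At 300 μg/mL (246) they numbered 606, 580, 101, 428 and 446, and 396 with centred offsets, 407 with centred offsets and block, and 118 without the low libraries. With 1 sample left out the counts ran from 136 (without mouse 4 at 100 μg/mL) to 413 at 100 μg/mL and from 46 (without mouse 6 at 300 μg/mL) to 317 at 300 μg/mL. At 100 μg/mL they were also 251 without control mouse 5, 189 and 209 without senescent mice 6 and 5, and 221 and 157 without mice 6 and 5 at that dose. At 300 μg/mL they were 147 without senescent mouse 6, and 159 and 120 without mice 4 and 5 at that dose. In senescent against control MEFs (1266) they numbered 699 with the 2 groups alone. With 1 sample left out, the pathway genes named in the text were DEGs in 12 of 12 fits for Timp1 and Fosl1 at both doses, in 11 for Myc, 9 for Zfp36l1, 8 for Socs2 and 7 for Bcl2l1 at 100 μg/mL, and in 8 for Zfp36l1 and 5 for Myc at 300 μg/mL.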

Other observations

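For the receptor chains, the genes with the most similar pattern were looked up after their values had been seen. Over the 12 samples Il6st was closest to Vcan (Pearson's r 0.979), which encodes the matrix proteoglycan versican, and to Epha3 (0.979), an ephrin receptor. Osmr was closest to Pik3r1 (0.982), the regulatory subunit of PI3 kinase, and Lifr to Acvr2a (0.964), an activin receptor. These correlations are descriptions over samples that share groups and libraries. Bcl3, a STAT3-responsive gene and atypical IκB protein chosen after its values were seen, was at 0.936 ± 0.409 CPM in senescent MEFs and at 4.14 ± 1.34 CPM with 100 μg/mL (mean ± SD, n = 3), a 4.41-fold difference that did not pass in edgeR's quasi-likelihood test (adjusted p = 0.0707), with an adjusted p of 0.00519 by DESeq2.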
